A study of Mus musculus with 24 samples.

Results

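Chromatin accessibility was described at 8 Hedgehog pathway genes in mouse epidermal stem cells (EpdSCs) in which SOX9 was induced. The genes were Shh, Hhip, Ptch1, Smo, Sufu, Gli1, Gli2 and Gli3. A peak was taken as a member when it overlapped the body of a gene or the 50 kb on either side of it. This gave 978 of 708357 peaks in 12 lists, between 64 and 97 a list. Overlapping peaks were joined into regions, of which 126 of 98240 lay in these windows in skin and 128 of 97078 in culture. Over all 12 lists there were 165 of 134385 regions.

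Each list pooled 2 replicates, so there was no replicate error and no test was possible. The 5 skin lists came from back skin EpdSCs of CD1 male mice carrying K14rtTA and TRE-myc-Sox9, in which the keratin 14 promoter drives the doxycycline (DOX) responsive activator. They were sorted before DOX (D0, postnatal day 21) and after 1, 2 and 6 weeks of DOX (W1, W2 and W6, at days 28, 35 and 63). Age rose with time on DOX and no skin list came from uninduced mice of the later ages. Age and time on DOX thus cannot be told apart at any skin interval. The W12 list came from grafted skin after 12 weeks, so graft and duration cannot be told apart there. According to the methods, skin of newborn pups was grafted onto immunocompromised Nude female mice and healed before DOX. Each replicate pooled several males according to the study's methods. The sort took cells high in CD49f and Ly6A that lacked CD34 and the surface markers of endothelium, leukocytes, melanocytes and fibroblasts.

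The 7 culture lists came from keratinocytes of CD1 male back skin. The methods state that primary cells carrying K14rtTA and TRE-myc-Sox9 were isolated from newborn male pups. The noDOX and WT-SOX9 groups carried K14rtTA and TRE-myc-Sox9, without DOX and with 1 µg/ml DOX. The other groups received 1 µg/ml DOX and carried K14rtTA with TRE-myc-Sox9noHMG (ΔHMG-SOX9, without the DNA-binding domain), TRE-myc-Sox9noTA (ΔTA-SOX9, without the transactivation domain) or TRE-FLAG-AFOS (AFOS, a dominant-negative form of FOS). The last 2 carried TRE-myc-Sox9 together with TRE-FLAG-AFOS (SOX9+AFOS) or TRE-ARID1a (SOX9+ARID1a, where ARID1a belongs to the SWI/SNF remodelling complex). According to the methods, the SOX9 variants, AFOS and ARID1a were delivered by lentivirus. The noDOX list was the only culture without DOX and served as the control of all 6 arms, so it controls for induction of its own construct and not for the constructs of the other arms.

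Hedgehog ligands such as Shh bind PTCH1, which otherwise holds the membrane protein SMO inactive. Free SMO leads the GLI transcription factors to be released from SUFU, and GLI1 and GLI2 then switch on targets that include Gli1, Ptch1 and Hhip, while GLI3 serves mostly as a repressor. HHIP is a membrane protein that binds and sequesters the ligand. In skin the pathway drives hair follicle growth, and its unchecked activity drives basal cell carcinoma.

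Several lists need a remark before the results. A peak within Sox9 exon 3, where an intronless transgene adds signal, was found in every skin list but the one labelled W1, with authors' scores of 13.5 before DOX and 8.84 to 15.1 after it. In culture, exon 3 held a peak of its own in noDOX (3.71), SOX9+AFOS (5.11) and SOX9+ARID1a (3.71). In WT-SOX9 (21.2) and ΔHMG-SOX9 (71.9) it was covered by the end of a single peak of 3425 and 2902 bp that also spanned introns, and ΔTA-SOX9 and AFOS had no peak over it. The peak lists thus do not separate the construct from the endogenous gene in any culture arm, and the arms are named here by their labels. Peaks confined to Arid1a exons past the first numbered 12 in SOX9+ARID1a but also 8 in AFOS and 7 in SOX9+AFOS, against 0 or 1 in each other list. Peak names in these 3 lists also have another form than in the rest, and whether their peaks were called alike was not tested. Counts of regions that need a peak, or its absence, in W1 or SOX9+AFOS together with other lists are also given without that list for the static, gained, opened and closed regions. The score is the authors' normalised peak significance, with a floor of 3. Scores summed to between 925672 and 996710 a list, and they are set side by side below on the assumption that this common total makes them comparable. A ratio of scores is not a ratio of accessibility. Start sites of 21 cell type markers were read as a check. Krt5, Krt14, Itga6 and Itgb4 of the epidermal stem cell list had a peak in all 12 lists, Trp63 had one only at another of its start sites, and Ly6a had one at D0 (9.66) and W2 (5.39) alone. The leukocyte gene Ptprc and the melanocyte gene Kit had none in any list, and the endothelial gene Cdh5 and the melanocyte gene Mlana none in skin. The endothelial gene Pecam1 had none in skin at its main start site and one at another start site in 4 of the 5 skin lists. The third melanocyte gene, Dct, had one in all 5 skin lists (20.1 to 38) and in SOX9+AFOS (17.7). The fibroblast genes Pdgfra and Col1a1 had one in 12 and 11 lists, and the Merkel cell genes Atoh1 and Sox2, but not Krt20, in all 5 skin lists. Of the hair follicle stem cell genes, Lhx2 and Nfatc1 had one in all 5 skin lists, while Cd34 had one at W6 (5.9) and W12 (3.03) alone among skin lists, and so did Lgr5 (5.73 and 7.73), which also had one in all 7 culture lists. The part of other cell types in the results, the gains at W6 and W12 among them, was not tested.

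The sequences below show 7 of the regions that changed at Gli2, Gli3 and Sufu, at their central 200 bp. They were picked after their values were seen, for regions that opened or rose, and other changed regions of these genes, those lost by W2 among them, are not shown. Coordinates are GRCm38, and the bases are from the RefSeq assembly of that build. Capitals mark exact matches on either strand to the core letters recognised by 5 families of transcription factors. For SOX proteins these were ACAATGG, together with the close variant that reads ACAATAG instead. For AP1, the FOS and JUN dimer, they were TGAGTCA, together with the reverse complement of that run. For GATA factors the letters searched were AGATAA, for the RUNX family of factors they were TGTGGT, and for the GLI proteins they were GACCACCCA. A match is a description of the letters and not a binding site.
Gli2 upstream region, chr1:119097942-119098141, plus strand: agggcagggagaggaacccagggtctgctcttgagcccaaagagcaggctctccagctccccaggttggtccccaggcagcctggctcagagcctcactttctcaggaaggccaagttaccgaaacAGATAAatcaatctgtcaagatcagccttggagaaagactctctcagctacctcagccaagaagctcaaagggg
Gli2 intron 1 region, chr1:119034104-119034303, plus strand: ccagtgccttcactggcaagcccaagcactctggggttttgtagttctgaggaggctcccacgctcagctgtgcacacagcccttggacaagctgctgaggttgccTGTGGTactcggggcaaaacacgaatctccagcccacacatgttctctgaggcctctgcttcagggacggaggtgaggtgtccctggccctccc
Gli2 intron 2 region, chr1:118955876-118956075, plus strand: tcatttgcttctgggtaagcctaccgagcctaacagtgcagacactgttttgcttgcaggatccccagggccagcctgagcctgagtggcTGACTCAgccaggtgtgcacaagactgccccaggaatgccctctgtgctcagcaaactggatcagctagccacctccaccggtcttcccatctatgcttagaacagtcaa
Gli3 intron 1 region, chr13:15468466-15468665, plus strand: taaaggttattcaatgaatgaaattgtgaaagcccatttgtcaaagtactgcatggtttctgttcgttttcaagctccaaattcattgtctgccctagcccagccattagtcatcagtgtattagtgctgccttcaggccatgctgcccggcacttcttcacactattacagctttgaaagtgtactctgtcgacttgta
Gli3 intron 4 region, chr13:15638251-15638450, plus strand: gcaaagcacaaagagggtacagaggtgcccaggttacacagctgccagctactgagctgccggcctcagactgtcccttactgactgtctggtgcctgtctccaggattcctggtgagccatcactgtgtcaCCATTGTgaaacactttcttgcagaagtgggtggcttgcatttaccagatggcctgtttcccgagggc
Sufu upstream region, chr19:46389228-46389427, plus strand: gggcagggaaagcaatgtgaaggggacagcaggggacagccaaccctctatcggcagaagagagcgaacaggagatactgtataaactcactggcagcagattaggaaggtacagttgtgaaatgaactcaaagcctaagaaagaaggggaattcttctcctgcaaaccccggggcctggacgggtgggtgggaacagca
Sufu intron 3 region, chr19:46437545-46437744, plus strand: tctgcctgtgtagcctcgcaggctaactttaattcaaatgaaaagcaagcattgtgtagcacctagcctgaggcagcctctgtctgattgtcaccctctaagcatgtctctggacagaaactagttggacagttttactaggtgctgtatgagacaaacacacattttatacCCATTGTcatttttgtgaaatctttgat

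Of the sequences shown, those of Gli3 intron 4 and Sufu intron 3 held SOX letters, and no share is drawn from this selection. The Gli3 intron 1 and Sufu upstream sequences held none of the 5 sets of letters. Over the central 200 bp of regions, SOX letters occurred in 7 of 126 skin regions of the Hedgehog windows (5.56%), against 5.33% of all skin regions. The share in culture was 3.91% (5 of 128), against 6.31%. AP1 letters occurred in 17.5% of the window regions in skin, against 19.6% of all skin regions, and in 14.8% in culture, against 21%. GATA letters were found in 7.94% in skin against 10.5%, and in 9.38% in culture against 9.39%. RUNX letters were found in 11.9% in skin against 14.9%, and in 17.2% in culture against 17.3%.

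The GLI letters are shown separately, since Ptch1 is a known GLI target. They were rare, in 0.0978% of the central windows of all skin regions, and 3 of 126 skin regions of the Hedgehog windows held them. Of these regions, 2 lay in the upstream part of Ptch1 and the third 16.5 kb before Smo. In culture the central 200 bp of 1 of 128 regions held them, a Gli2 intron 2 region, against 0.0979% of all culture regions. Over the full length of regions it was 2 of 128 in culture (1.56%), against 0.399% of all culture regions. The other was the Ptch1 start-site region (chr13:63563159-63566610), 3452 bp wide. It spans the Ptch1 match near the start site, but outside its central 200 bp. Whether the peak of each culture list covers that match was not tested. The 30 bases around each match are as follows.
Ptch1 region near the start site, chr13:63566424-63566453, plus strand: caaagtagagaGACCACCCAggtaggcaac
Ptch1 region at the distal start site, chr13:63573454-63573483, plus strand: ggccctcggcgTGGGTGGTCtgccgcgcca
Smo upstream region, chr6:29719062-29719091, plus strand: gctctaccacaTGGGTGGTCcccaccatgt
Gli2 intron 2 region of the culture lists, chr1:118969532-118969561, plus strand: gggcctgcccaGACCACCCAgtctccagca

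The Shh window, the shortest at 110 kb, held few peaks, most of them weak, and none at the gene itself. Its density was 4.53 regions per 100 kb in skin and 6.34 in culture. The medians over the windows of all protein-coding genes were 6.03 and 6.21. SHH is the main Hedgehog ligand of skin. Its single start site had no peak within 1 kb in any of the 12 lists, and no peak lay in the gene body (chr5:28456815-28467256). Of the 8 regions over all 12 lists, 7 were intergenic and 1 lay in the 3′ untranslated region of the neighbour Rbm33. The number of peaks was 1, 3, 2, 3 and 1 from D0 to W12, and 2 to 6 in the culture lists.

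The highest skin score at Shh was 9.66, in a region 28.6 kb upstream (chr5:28495620-28496094), which had scores of 3.79, 6.33, 7.77 and 9.66 from D0 to W6 and no peak at W12. A second region beside it (chr5:28496323-28496696) had a peak at W1 (3.58) and W2 (6) alone. The upstream peaks were thus weak and were absent from the grafted skin. In culture, the upstream region (chr5:28495651-28496326) was present in noDOX (4.28), AFOS (5.53), SOX9+AFOS (3.05) and SOX9+ARID1a (6.38). The strongest culture peak lay in Rbm33 (chr5:28414199-28415074), 52.6 kb downstream of the Shh start, with a score of 26.7 in WT-SOX9, 6.98 in SOX9+ARID1a and none in the other 5 lists. A region 34.2 kb upstream (chr5:28500904-28502067) had 13.2 in SOX9+ARID1a and 3.31 in noDOX. A region 15.8 kb downstream of the Shh start (chr5:28451314-28451566) was present at 3.01 to 6.38 in every culture list but AFOS.

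**Figure D1:**
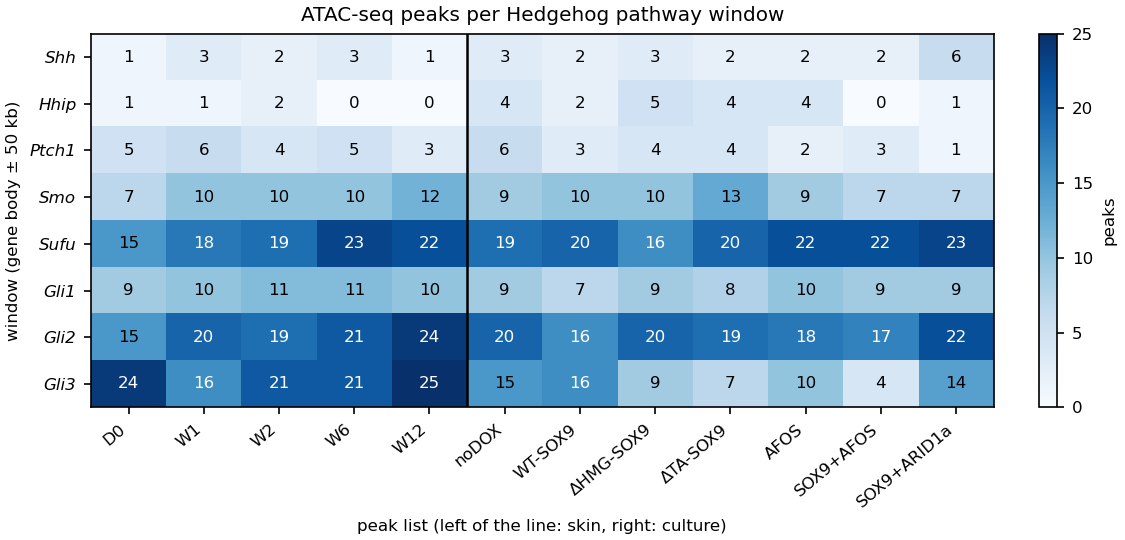
Number of ATAC-seq peaks (cells and colour) in each window, the gene body with 50 kb on either side, for the 5 skin lists and the 7 culture lists. Shh, Hhip and Ptch1 held 0 to 6 peaks in every list. Gli3 held 15 in noDOX, 16 in WT-SOX9, 4 in SOX9+AFOS (the shortest list) and 7 to 14 in the other arms. Windows differ in length, from 110 kb at Shh to 367 kb at Gli3.

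Hhip likewise had no start-site peak in any list. Its window (gene at chr8:79965851-80058006, no other protein-coding gene inside) held 2 skin regions and 6 culture regions. An intron 4 region (chr8:80006809-80007237) had skin scores of 7.49, 4.33 and 3.97 from D0 to W2 and no peak afterwards. An intron 7 region (chr8:79992583-79993025) was present at W2 alone (3.97). By W6 no peak was left in the skin window.

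In culture, Hhip intron 4 carried stronger peaks that were missing where full-length SOX9 was combined with AFOS or ARID1a. One intron 4 region (chr8:80013687-80014413) scored 13.1 in noDOX, 9.32 in WT-SOX9, 29.5 in ΔHMG-SOX9, 36 in ΔTA-SOX9 and 37.1 in AFOS, with no peak in SOX9+AFOS and SOX9+ARID1a. Another (chr8:80032072-80033060) was present in ΔHMG-SOX9 (24), ΔTA-SOX9 (18.1) and AFOS (26.7) and in none of the other 4 lists. The peak was thus found in the 3 DOX arms that lack full-length SOX9. A region past the 3′ end (chr8:79962760-79963360) scored 17.1 in noDOX, 14.1 in ΔHMG-SOX9, 15.6 in ΔTA-SOX9, 17.4 in AFOS and 6.8 in SOX9+ARID1a, and was absent from WT-SOX9 and SOX9+AFOS. The counterpart of the D0 intron 4 peak (chr8:80006773-80007226) was present at 4.55 in noDOX, 5.43 in ΔHMG-SOX9, 5.39 in ΔTA-SOX9 and 6.21 in AFOS and had no peak in the 3 arms with full-length SOX9.

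Ptch1 encodes the Hedgehog receptor and was open at its upstream part throughout. The longest-coding transcript starts at chr13:63565735, and other transcripts start further upstream, up to chr13:63573598. A region 2.25 kb upstream (chr13:63567648-63568331) was present in all 12 lists. Its skin scores were 23.8, 39.9, 34.7, 21.3 and 20.1 from D0 to W12. Scores were thus highest at W1 and W2 and at W6 and W12 lay below D0. In culture it (chr13:63567582-63568321) scored 20.6 in noDOX, 46.2 in WT-SOX9, 36.7 in ΔHMG-SOX9, 27.1 in ΔTA-SOX9, 13.4 in AFOS, 20.1 in SOX9+AFOS and 16.6 in SOX9+ARID1a. WT-SOX9 was the highest and ΔHMG-SOX9 the second, while the other 2 arms with full-length SOX9 lay at or below noDOX.

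Around the start site itself the Ptch1 scores were low, between 3.35 and 5.8 in the skin region just inside it (chr13:63564403-63565530). A region 0.721 kb upstream that holds GLI letters (chr13:63566269-63566643) was seen at W1 alone among skin lists (8.47). The region at the distal start sites, which also holds GLI letters (chr13:63573193-63573809), was present at D0 (3.74) and W1 (3.71) and then lost, at scores close to the floor of 3. A further region 6.82 kb upstream (chr13:63572363-63572752) was present up to W6 (scores 3.16 to 5.64) and absent at W12. In culture the start-site region (chr13:63563159-63566610) scored between 3.53 and 6.57 in 5 lists and was absent from AFOS and SOX9+ARID1a. This wider region spans the GLI letters of the skin region 0.721 kb upstream.

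Ptch1 intron 2 held a region whose behaviour differed between skin and culture. In skin (chr13:63548366-63549197) it was present in every list, with scores of 21.1, 20.4, 16.2, 15.8 and 14 from D0 to W12. In culture (chr13:63548388-63549129) it scored 7.34 in noDOX, 6.83 in ΔHMG-SOX9, 24.5 in ΔTA-SOX9 and 9.52 in AFOS and was absent from the 3 arms with full-length SOX9. WT-SOX9 instead had a peak elsewhere in intron 2 (chr13:63556603-63557248, score 13) that no other culture list had.

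Smo encodes the signal transducer, and its start-site region was present in all 12 lists. Sufu, Gli1 and Gli2 shared this pattern, so 4 of the 8 genes did, against 43.7% of all protein-coding genes. Shh and Hhip were the 2 of 8 without a start-site peak in any list, against 35.8% of all. The Smo start-site scores (chr6:29735276-29736643) were 20.8, 16.2, 13.5, 13.2 and 9.92 from D0 to W12, in steps that all went down. In culture (chr6:29735355-29736602) they were 24.9 in noDOX, 25.4 in WT-SOX9, 18.5 in ΔHMG-SOX9, 18.8 in ΔTA-SOX9, 36.8 in AFOS, 44.9 in SOX9+AFOS and 15.7 in SOX9+ARID1a.

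The strongest Smo region lay 5.7 kb upstream (chr6:29729673-29730326). It scored 62.5, 46.3, 34, 27.7 and 46.3 from D0 to W12, lowest at W6. In culture (chr6:29729691-29730486) it scored 59.1 in noDOX, 27.6 in WT-SOX9, 111 in ΔHMG-SOX9, 79.9 in ΔTA-SOX9, 71 in AFOS, 8.08 in SOX9+AFOS and 47.7 in SOX9+ARID1a. All 3 arms with full-length SOX9 lay below noDOX, and the other 3 arms lay above it. A region 41.5 kb upstream (chr6:29693808-29694589) scored 39, 49.8, 40.3, 36.1 and 28.5 from D0 to W12.

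At the far upstream end of the Smo window, a region 49.9 kb from the start (chr6:29685298-29686319) was gained by W2 and kept. It scored 10.6, 9.75 and 7.66 from W2 to W12. In culture its counterpart (chr6:29685155-29686316) was already present without DOX (7.45), scored 3.29 in WT-SOX9 and was absent from SOX9+AFOS. A region in intron 1 of the neighbour Ahcyl2 (chr6:29777218-29777636) was opened to scores of 10.9, 12.1 and 9.42 by WT-SOX9, SOX9+AFOS and SOX9+ARID1a, and was absent from the other 4 culture lists. A region 9.11 kb upstream of Smo (chr6:29726303-29726868) scored 7.58, 8.17 and 4.25 from D0 to W2, had no peak at W6 and scored 4.59 at W12. The second highest culture scores of the window were over Ahcyl2 exon 1 (chr6:29767680-29769418), at 27.5 to 66.5. Of the 18 Smo window regions over all 12 lists, 5 lay in a neighbouring gene.

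Sufu encodes the cytoplasmic inhibitor of the GLI proteins, and its window was the densest, with 15.6 skin regions per 100 kb against a median of 6.03 over the windows of all protein-coding genes. The window holds 5 other genes, and 18 of its 39 regions lay within one of them. The region over the Sufu start (chr19:46396617-46397166) scored 10.7, 33.4, 14.8, 20.2 and 13.4 from D0 to W12, with the list labelled W1 standing highest. A region in intron 1 of the divergent neighbour Actr1a (chr19:46394940-46396054) had the top score of the window in skin, with 51.8, 45.5, 25.5, 22.2 and 42.3 from D0 to W12. In culture both were present in all 7 lists, the Actr1a region with 43 in noDOX and up to 102 in AFOS.

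New peaks appeared 7.59 and 28.8 kb upstream of Sufu. The nearer one (chr19:46388967-46389689, Actr1a intron 1), whose sequence is given above, was absent at D0 and W1 and scored 11.2, 11.4 and 6.91 from W2 to W12. In culture (chr19:46388968-46389719) it was present in the arms with full-length SOX9 alone, at 13.7 with WT-SOX9, 19.6 with SOX9+AFOS and 10.7 with SOX9+ARID1a. By their labels, the lists with this region were those with induced full-length SOX9, apart from W1. Whether SOX9 opened it was not tested. The farther one (chr19:46367698-46368577, over Mfsd13a exon 4) scored 6.86, 12.6 and 7.97 at W2, W6 and W12.

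Within the Sufu gene, an intron 3 region (chr19:46437373-46437917), which holds SOX letters, was opened in WT-SOX9 (20.4), SOX9+ARID1a (10.8) and, near the floor, SOX9+AFOS (3.14). It had no peak in any skin list. Sufu intron 10 (chr19:46478397-46480207) held a peak in all 7 culture lists, at 20.6 to 54.4. A region in Trim8 intron 1 (chr19:46508932-46509634) scored 12.5 in noDOX and 7.77 to 42.4 in 5 arms and was absent from SOX9+AFOS. In the other direction, an intron 8 region (chr19:46470866-46471390) scored 5.37 at D0 and 4.56 at W1 and was lost by W2. Actr1a intron 4 (chr19:46383998-46384372) lost a weaker peak in the same way, from 3.96 at D0 and 3.86 at W1. A region chosen after its values were seen (chr19:46390683-46391131, Actr1a intron 1) was present in every skin list and had scores of 3.56, 8.71, 15.8, 11.8 and 10.6 from D0 to W12. Its fold enrichment over background, another column of the skin files, went from 3.61 at D0 to 6.16 at W2. In culture (chr19:46390722-46391157) the counterpart scored 7.7 in noDOX and more in the 3 arms with full-length SOX9, at 13.4 with WT-SOX9, 26.5 with SOX9+AFOS and 36 with SOX9+ARID1a. The other 3 arms had no peak there.

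Gli1, a transcriptional activator and the usual readout of pathway activity, had a start-site peak in every list. Its score was below the median of the list, except in noDOX and ΔHMG-SOX9, where the medians were 10.8 and 10.3. The region just upstream (chr10:127342031-127342650) scored 4.68, 6.12, 5.26, 6.21 and 6.94 from D0 to W12. In culture (chr10:127342017-127342604) it scored 11.5 in noDOX, 6.5 in WT-SOX9, 12.2 in ΔHMG-SOX9, 7.36 in ΔTA-SOX9, 4.52 in AFOS, 6.6 in SOX9+AFOS and 3.94 in SOX9+ARID1a. An intron 2 region (chr10:127338799-127339677), within the gene, was stronger. It was also present in all lists, with 16.6, 18.1, 23.6, 21.4 and 20.3 from D0 to W12 and 25.2 to 55.3 in culture.

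The rest of the Gli1 window belonged mostly to its 8 neighbours. Of 11 skin regions, 5 lay within 1 kb of the start site of another gene, and these included the top scores of the window, up to 64 (chr10:127311186-127312602) and up to 27.3 (chr10:127289198-127291530). The counterpart of the latter in culture (chr10:127288417-127291459) scored 34.8 to 58.8. No Gli1 region was gained by W2 and kept. A region over Arhgap9 exon 8 (chr10:127326161-127327107) was missing at W2, with scores near the floor of 3.3 at D0, 4.68 at W1 and 3.71 at W6 and no peak at W12. The highest region absent at D0, in Mars intron 11 (chr10:127300224-127300955), was seen at W12 alone (5.71). In culture a peak in Arhgap9 intron 2 (chr10:127324603-127324873) scored 5.81 in noDOX and 3.41 to 12.8 in 5 arms and was absent from SOX9+ARID1a, which alone had a Gli1 intron 5 peak (chr10:127337086-127337303, score 4.01). Of all 11 regions over the 12 lists, 6 were present everywhere, a share of 54.5% against 14.1% of all regions. Across all 8 windows the share present everywhere was 15.8% (26 of 165).

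Gli2 encodes the main activator of the pathway, and its window gained regions, while no region open at D0 was missing at W2 or W12 and 1 was missing at W6. No other protein-coding gene lies in this window (gene at chr1:118834132-119053619). Peaks at D0, W2 and W12 made up 15, 19 and 24 regions, with 4 gained and 0 lost from D0 to W2 and 9 gained and 0 lost from D0 to W12. From D0 to W6, 7 of 21 were gained (33.3%, against 38.7% of all W6 regions) and 1 of 15 was lost (6.67%, against 19% of all D0 regions), in a W6 list that held 75956 peaks against 57334 at D0. The region missing at W6 lay in intron 1 (chr1:119010309-119010998) and scored 7.49, 29.1 and 4.53 from D0 to W2 and 5.93 at W12. The gained shares at Gli2 were 21.1% of its W2 regions, below the 26.5% over all regions, and 37.5% of its W12 regions, against 33.1%. The lost shares of 0 of 15 stand against 19.7% at W2 and 16.3% at W12 over all D0 regions. Over all 8 windows, 15 of the 79 W2 regions were gained since D0 (19%), against 26.5% of all regions, and 11 of the 75 D0 regions were lost by W2 (14.7%), against 19.7%. For W6 the shares were 32.6% gained (29 of 89), against 38.7%, and 20% lost (15 of 75), against 19%. For W12 they were 34.7% gained (33 of 95), against 33.1%, and 17.3% lost (13 of 75), against 16.3%.

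The Gli2 region absent at D0 with the highest later score lay 44.4 kb upstream (chr1:119097547-119098537). It scored 3.86, 18.1, 18.2 and 11.6 from W1 to W12. In culture (chr1:119097623-119098395) it was present in WT-SOX9 alone (15.2). A second region, in intron 13 (chr1:118839773-118840488), was absent at D0 and W1 and scored 3.72, 7.14 and 5.49 from W2 to W12. In culture (chr1:118839576-118840519) it was present in all 7 lists, with 11.6 in noDOX.

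**Figure D2:**
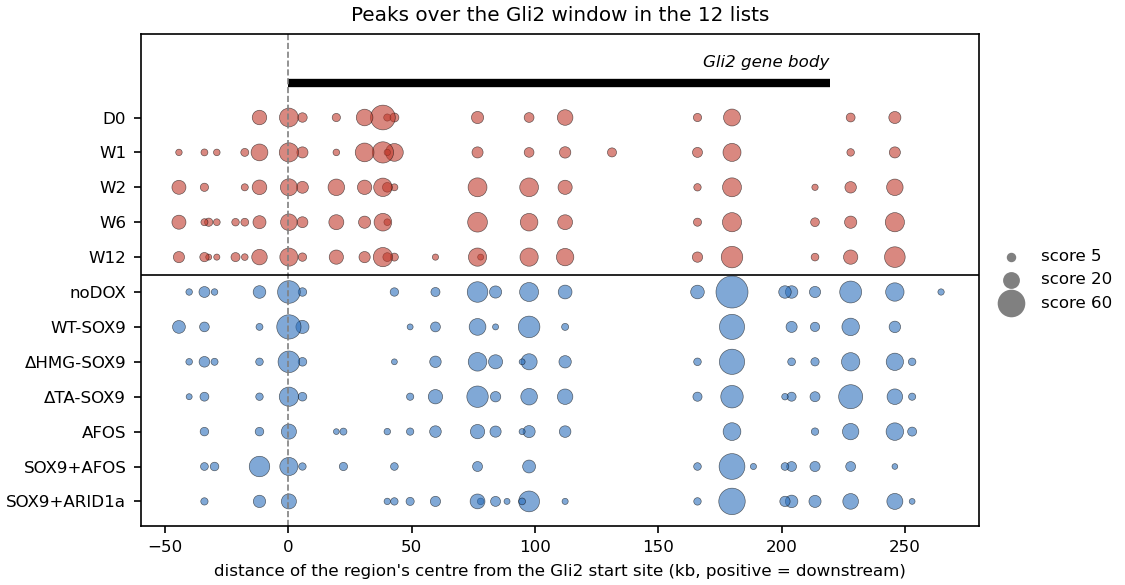
Peaks over the Gli2 window in each list, placed by the distance of the region's centre from the start site in kb, with circle area set by the authors' score (red skin, blue culture). The regions 38.3 and 30.9 kb downstream appear in all 5 skin lists and in no culture list.

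Among Gli2 regions open at every skin time, some scores rose at W2 and others fell (these were chosen after their values were seen, apart from the 2 with the highest scores). An intron 1 region 19.4 kb into the gene (chr1:119033843-119034564) scored 6.31, 4.09, 25.3, 20.7 and 18.7 from D0 to W12. An intron 2 region (chr1:118955697-118956255) scored 8.93, 8.82, 32.4, 28.6 and 30.7, and a second in intron 2 (chr1:118976428-118977246) 13.8, 11.4, 32.9, 35.9 and 30.6. All 3 were low at D0 and W1 and high at the 3 later times, without overlap. The W2 score over D0 was 4, 3.63 and 2.38, while the fold enrichment went from 8.89 to 13.8, from 11.7 to 16.6 and from 13.5 to 16.7, so the rise was smaller on that scale. The culture counterparts of both intron 2 regions were in all 7 lists, already at 33.1 and 38.9 in noDOX, while that of the intron 1 region was seen in AFOS alone (3.09).

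A region beyond the 3′ end of Gli2 (chr1:118807506-118808081) scored 13.5, 11.4, 25.1, 33.9 and 39.3 from D0 to W12. The intron 3 region (chr1:118873275-118874144) had the second highest score of the skin window, 42.5 at W12, up from 26.5 at D0. The highest was 56.4 at D0, in intron 1 (chr1:119014927-119015693), which then stood at 41.7, 31.4, 28.8 and 34.2. The neighbouring intron 1 region (chr1:119022188-119023280) went from 25.5 at D0 to 11.7 at W12. The start-site region (chr1:119053329-119054192) stayed between 25.5 and 34.

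**Figure D3:**
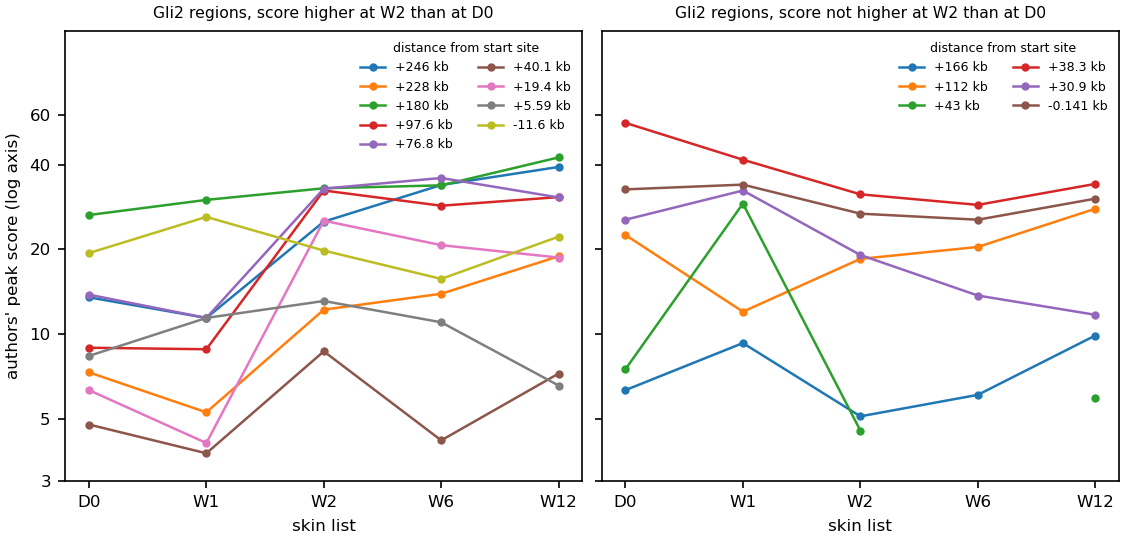
Authors' score (log axis) at the 5 skin times for each Gli2 region with a peak at both D0 and W2, split by whether the W2 score exceeded that at D0. Regions 19.4, 76.8 and 97.6 kb downstream of the start site rise between W1 and W2, and the region 38.3 kb downstream falls from 56.4 at D0 to 31.4 at W2. The gap in the line at 43 kb is the W6 list, which had no peak there.

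Over all windows, 9 of the 64 regions open at both D0 and W2 had a score at least 2-fold higher at W2 (14.1%), against 11.3% of all such regions. Of these, 3 lay at Gli2, 3 at Sufu, 2 at Gli3 and 1 at Shh. A score at least 2-fold lower was found for 4 of 64 (6.25%), against 8.36%, with 2 at Sufu and 2 at Gli3. The median log2 ratio of W2 to D0 was -0.01 both in the windows and over all regions.

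In culture the Gli2 window held 16 to 22 peaks a list. The noDOX list had 20 Gli2 regions, and 9 of 30 were present in all 7 lists (30%, against 25.3% of all regions). The top score was in intron 3 (chr1:118873334-118874158), with 94.6 in noDOX, 58.1 in WT-SOX9, 58.6 in ΔHMG-SOX9, 46.5 in ΔTA-SOX9, 29 in AFOS, 61.3 in SOX9+AFOS and 64.6 in SOX9+ARID1a. The start-site region (chr1:119052703-119053992) scored 47.2, 54.3, 43.2, 34.2, 21.1, 30.5 and 20.9 in the same order, lowest in SOX9+ARID1a and AFOS. An intron 2 region (chr1:118940993-118941840) scored 17.5 in noDOX and 4.6 in WT-SOX9 and was absent from SOX9+AFOS, while ΔHMG-SOX9 had 14.1, ΔTA-SOX9 22, AFOS 12.4 and SOX9+ARID1a 3.52.

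Gli3 encodes the main repressor of the pathway, and its window had losses as well as gains in skin. It had 24 regions at D0, of which 6 were lost by W2 (25%, against 19.7% of all D0 regions), while 2 of its 20 W2 regions were gained (10%, against 26.5% of all W2 regions). The lost regions that did not return were 4, out of 7 in all 8 windows. Over the windows 9.33% of D0 regions (7 of 75) were lost by W2 and not regained, against 9.87% of all D0 regions. They lay 8.54 kb upstream (chr13:15455131-15455756, 6.31 at D0 and 3.41 at W1), in intron 2 (chr13:15483991-15484725, 9.42 and 10.4) and at 2 places in intron 3 (chr13:15609946-15610804, 4.67 and 4.6, and chr13:15612790-15613098, 4.72 at D0 alone).

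The 2 Gli3 regions gained by W2 and kept lay in intron 1 (chr13:15468330-15468802) and intron 4 (chr13:15638136-15638566). The first scored 12, 9.56 and 10.2 from W2 to W12, and the second 7.38, 5.33 and 3.59. In culture the intron 1 region (chr13:15468144-15468799) was already open in noDOX (11.5) and scored 21 in WT-SOX9, 6.47 in ΔHMG-SOX9, 4.86 in AFOS and 12.2 in SOX9+ARID1a, with no peak in ΔTA-SOX9 and SOX9+AFOS. The intron 4 region (chr13:15637984-15638647) was present in noDOX (6.75) and in all DOX arms but SOX9+AFOS.

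**Figure D4:**
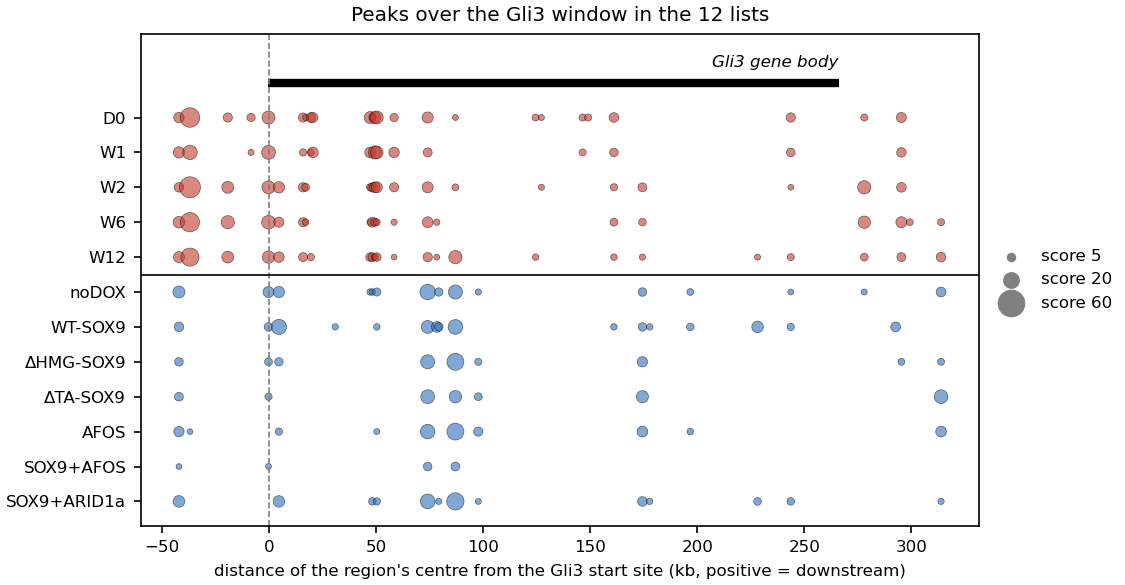
Peaks over the Gli3 window in each list, placed by distance from the start site in kb, with circle area set by the authors' score (red skin, blue culture). The strong region 37.1 kb upstream is seen in every skin list and, in culture, only as a weak AFOS peak, and the SOX9+AFOS list has 4 peaks in all.

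The Gli3 start-site region (chr13:15462559-15464660) kept skin scores of 15.6, 17.9, 15.8, 17.3 and 14.2 from D0 to W12. In culture (chr13:15462856-15464504) scores were lower, 11.1 in noDOX, 6.94 in WT-SOX9, 5.65 in ΔHMG-SOX9, 4.9 in ΔTA-SOX9 and 3.35 in SOX9+AFOS, and AFOS and SOX9+ARID1a had no peak. Start-site peaks of Ptch1 and Gli3, 2 of the 6 members with one in noDOX, were thus absent from these 2 arms. Among all genes with a noDOX start-site peak, 6.79% lacked it in AFOS and 12.8% in SOX9+ARID1a, and scores of those that kept it were lower than in noDOX, by a median log2 ratio of -0.36 and -0.76. Whether this general lowering had a part in the Ptch1 and Gli3 losses was not tested.

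The strongest Gli3 region in skin lay 37.1 kb upstream (chr13:15426352-15427473), with 35, 19.3, 40.7, 34.2 and 30.4 from D0 to W12, the lowest being W1. In culture only AFOS had a peak there, at the floor (3.02). A region past the 3′ end (chr13:15741734-15742229, chosen after its values were seen) had 4.65 at D0, no peak at W1 and then 16.3, 14.3 and 5.74. In culture the top Gli3 scores were in intron 3 (chr13:15550633-15551245), between 14.3 and 27.5 outside SOX9+AFOS and 7.35 in it. Those of intron 2 (chr13:15537141-15538750) were next, between 15.4 and 22.2 outside SOX9+AFOS and 6.81 in it. An intron 10 region (chr13:15691714-15692495) was opened in WT-SOX9 (12.2) and SOX9+ARID1a (5.39). SOX9+AFOS had 4 Gli3 peaks, against 15 in noDOX and 16 in WT-SOX9. The other arms held 14 (SOX9+ARID1a), 10 (AFOS), 9 (ΔHMG-SOX9) and 7 (ΔTA-SOX9). SOX9+AFOS was the shortest list (49458 peaks), and 34.9% of all noDOX regions were absent from it.

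Over the 8 windows together, the share of regions that changed lay close to that of all regions at each skin interval. From D0 to W1, 25 of 92 regions changed (27.2%, 95% Wilson interval 19.1 to 37), against 24.8% of all regions. These were 17 gained, 20.2% of the W1 regions against 15.4%, and 8 lost, 10.7% of the D0 regions against 12.9%. All 8 losses were at Gli3 (8 of its 24 D0 regions), in the W1 list remarked on above. Gli3 then gained 8 of its 20 W2 regions since W1 (40%, against 29.2% of all W2 regions). Only 2 of its W2 regions were absent at D0, so most of these 8 had been open at D0. The direction from D0 to W1 turned to 6 gained and 9 lost with a score of at least 5, to 5 and 6 in gene bodies alone, and to 4 and 17 with a common −log10 q minimum. From W1 to W2, 37 of 100 changed (37%, interval 28.2 to 46.8), against 42.7%, with 16 gained (20.3% against 29.2%) and 21 lost (25% in the windows and 25% over all). This direction turned to 16 gained and 11 lost with a score of at least 5, and to 32 and 29 with a 100 kb flank. From W2 to W6, 30 of 99 changed (30.3%, interval 22.1 to 40), against 32.6%, with 20 gained (22.5% against 26.4%) and 10 lost (12.7% against 11%). In lists of equal size it turned to 6 gained (9.38% against 18.9%) and 14 lost (19.4% against 16.9%). The changed share was 20% with a score of at least 5, with 8 gained (12.5% against 22.3%) and 6 lost (9.68% against 13.3%). It was 18.2% with the common −log10 q minimum. With that minimum 6 were gained (11.8%, interval 5.51 to 23.4), against 28.2% of all regions, which lies above the interval. Lost were 4 (8.16% against 9.72%). From W6 to W12, 30 of 107 changed (28%, interval 20.4 to 37.2), against 28.8%, with 18 gained (18.9% against 14.5%) and 12 lost (13.5% against 19.1%). With the common −log10 q minimum these were 26 gained (34.2% against 27.6%) and 1 lost (1.96% against 8.07%). At the other settings the share over all regions lay inside the members' interval for each skin interval, apart from the W2 to W6 gains named above. The intervals cover counting error alone, and regions of a window are not independent.

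In skin, 52 of 126 regions were static, that is, present in all 5 lists (41.3%, interval 33.1 to 50), against 37.8% of all regions. Without the W1 list the count was 55 (43.7%), against 41.1%. Gli2 had 14 of 25 and Gli3 11 of 32. Regions gained by W2 and kept, that is, those seen at W2, W6 and W12 but not earlier, numbered 6 of 126 (4.76%), against 7.99%, and were those named above at Smo, Sufu, Gli2 and Gli3. Without the W1 list the count was 10 (7.94%), against 9.25%, and 4 of these were at Gli2. The members' shares lay within a few percentage points of the background in each case.

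In culture, 31 of 128 regions were present in all 7 lists (24.2%, interval 17.6 to 32.3), against 25.3%. Without the SOX9+AFOS list the count was 38 (29.7% in the windows and 29.7% over all). When a peak had to cover at least 50% of its region, the share in all 7 lists was 10.2%, and the changed shares below were 43.2% for ΔHMG-SOX9 and 61.7% for SOX9+ARID1a. These are not to be set against the backgrounds below, since closing also rose over all regions under this rule. It was 31.4% over all noDOX regions for ΔHMG-SOX9 (37.8% in the windows) and 36.8% for SOX9+ARID1a (51.4% in the windows). WT-SOX9 changed 40 of 99 regions (40.4%, interval 31.3 to 50.3), against 43.2%, opening 17 (22.4% against 27.1%) and closing 23 (28% against 27.9%). ΔHMG-SOX9 changed 25 of 90 (27.8%, interval 19.6 to 37.8), against 29.1%, opening 8 (11% against 15.6%) and closing 17 (20.7% against 18.5%). With a score of at least 5 it opened 9 and closed 9, and under the rule on 50% cover it opened 7 and closed 28. ΔTA-SOX9 changed 32 of 95 (33.7%, interval 25 to 43.7), against 36.6%, opening 13 (17.1% against 25.3%) and closing 19 (23.2% against 19.2%), but opening 17 and closing 16 under that rule. All 6 arms shared the noDOX list as their control.

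The AFOS arm changed 39 of 98 regions (39.8%, interval 30.7 to 49.7), against 36.1%, opening 16 (21.3% against 26.3%) and closing 23 (28%, interval 19.5 to 38.6, against 17.3%). The background for closed regions lay below that interval, but with a 100 kb flank 26 of 114 noDOX regions closed (22.8%, interval 16.1 to 31.3), and this interval held the background of 17.3%. SOX9+AFOS changed 44 of 93 (47.3%, interval 37.5 to 57.4), against 48.6%, opening 11 (18.3% against 29%) and closing 33 (40.2% against 34.9%), of which 11 were at Gli3. SOX9+ARID1a changed 41 of 101 (40.6%, interval 31.5 to 50.3), against 36.2%, opening 19 (24.1% against 23.6%) and closing 22 (26.8% against 20.5%), but opening 28 and closing 27 (23.7% against 20.5%) with a 100 kb flank. In lists of equal size it opened 13 (21% against 20.6%) and closed 27 (35.5% against 23.9%). Under the rule on 50% cover it opened 20 (35.7% against 32.8%) and closed 38 (51.4% against 36.8%). In both of these settings the background for closed regions lay below the interval. With a score of at least 5, the openings and closings numbered 11 and 14 for WT-SOX9, 10 and 19 for AFOS, and 11 and 21 for SOX9+AFOS.

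**Figure D5:**
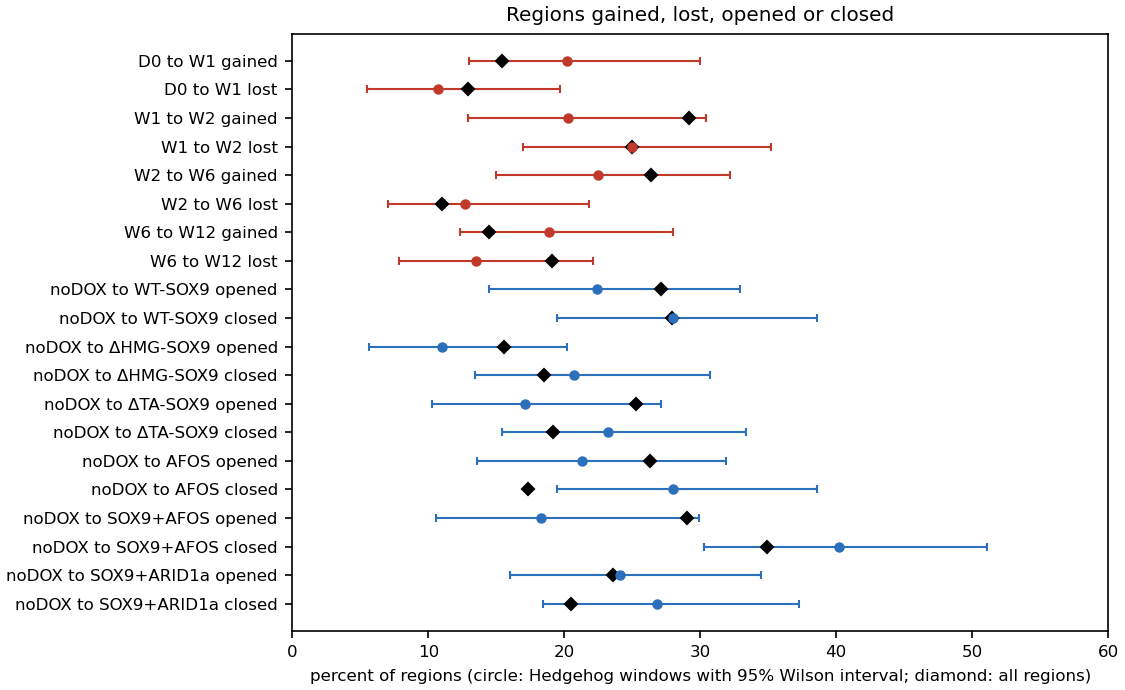
Percent of regions gained or lost between skin times (red) and opened or closed against noDOX (blue). Circles are the regions of the 8 Hedgehog windows with 95% Wilson intervals, and black diamonds are all regions. Closing in AFOS (28% against 17.3%) is the interval that its diamond lies outside, and with a 100 kb flank (22.8%) it lies inside.

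Regions absent from noDOX and opened in all 3 arms with full-length SOX9 numbered 3 of 46 (6.52%), against 7.07%, at Smo (Ahcyl2 intron 1) and at Sufu (intron 3 and the upstream region). Without the SOX9+AFOS list the count was 7 of 46 (15.2%), against 12.3%. Closed in all 3 of these arms were 11 of 82 noDOX regions (13.4%), against 10.5%. These included Ptch1 intron 2 (7.34 in noDOX) and 2 regions in Hhip intron 4 (4.55 and 3.07). Apart from Ptch1 intron 2, all of them scored between 3.03 and 4.55 in noDOX, near the floor of 3. Without the SOX9+AFOS list 12 of 82 were closed (14.6%), against 12.1%. Of regions open in both noDOX and WT-SOX9, 5 of 59 scored at least 2-fold higher in WT-SOX9 (8.47%), against 6.04%, among them the upstream Ptch1 region. At least 2-fold lower were 7 of 59 (11.9%), against 19.6%, of which 4 were at Gli2 and 2 at Smo.

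Skin and culture shared 82 of the 165 window regions (49.7%, against 43% of all regions). Skin alone had 37 (22.4%, against 27.9% of all regions) and culture alone 46 (27.9%, against 29.1%). Of the Gli3 regions, 13 of 36 (36.1%) were seen in skin alone, and of the Hhip regions 5 of 7 (71.4%) were seen in culture alone. Regions in all 5 skin lists and no culture list numbered 6 (3.64%), against 4.41%, with 3 at Gli3, 2 at Gli2 and 1 at Smo. The reverse pattern was found once (0.606%), against 0.982%, 27.1 kb downstream of the Smo start, just past its 3′ end (chr6:29762618-29762895). The 2 Gli2 regions were the intron 1 regions 38.3 and 30.9 kb downstream of the start site.

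The other pathway genes were read by counts, from a list of 28 genes. Of these, 20 had a start-site peak in all 5 skin lists (71.4%, against 53% of all protein-coding genes) and 14 in all 7 culture lists (50% against 44.7%). None was found in skin for 4 (14.3% against 38.3%), and none in culture for 4 (14.3% against 42.3%). The ligand genes Dhh and Ihh, like Shh, had none in any list. Foxe1, a follicle transcription factor gene, had a start-site peak at W6 (3.67), at W12 (4.04) and in SOX9+AFOS (5.06), and in no other list. Scube2, whose product helps to release the ligand, had a start-site peak in all 5 skin lists (4.91 to 13.1) and in no culture list. In the windows of these 28 genes, 42.2% of skin regions were static and 5.13% were gained by W2 and kept, close to the shares at the 8 members.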

How the data were processed

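ATAC-seq peak lists of 12 groups of 2 pooled replicates were used. The authors, as their methods state, aligned reads to GRCm38, merged replicates, called peaks with MACS2 and normalised the calls with a score threshold of 3. The submitters' processing notes name Bowtie2 2.2.9, Picard 2.3.0, SAMtools 1.9, MACS2 2.1.1 and deepTools 2.5.4. The deposited units are the authors' score in all lists and, in skin, the deposited fold ratio over background and −log10 q value. Read depth was not given in the files, so its precision is unknown, and lists held 49458 to 75956 peaks.

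Peaks overlapping by at least 1 bp were joined into regions, separately for skin and culture, and a region's score in a list was its highest peak. Genes and start sites were those of protein-coding genes in GENCODE M21 on GRCm38. A start-site peak lay within 1 kb of the start of the longest-coding transcript. Shares carry 95% Wilson intervals. Regions named per window were those at the start site, the 2 with the highest score, the highest absent at baseline, the highest baseline region lost in some list, and those gained by W2 and kept, lost by W2, or opened in all 3 arms with full-length SOX9. Any other region named was chosen after its values were seen. The members and lists were chosen with earlier results of these data known. The union and share code was tested on simulated data. Python 3.11.15 and SciPy 1.17.1 were used.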

Additional observations from a re-analysis of the deposited data

How the results depend on the processing

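No paired analysis was possible because each list pooled its replicates, and for the same reason no replicate could be left out. Of 77 recomputed shares, 71 lay within the interval of the value given above. The changed share from W2 to W6 was 20% with a score of at least 5 and 18.2% with a common −log10 q minimum. When a peak had to cover at least 50% of its region, the share present in all 7 culture lists was 10.2%, and the changed shares were 43.2% for ΔHMG-SOX9, 50.5% for AFOS and 61.7% for SOX9+ARID1a. Under this rule closing over all noDOX regions rose as well, to 31.4%, 24.6% and 36.8% in these arms. As chosen after seeing the data, regions gained by W2 and kept numbered 10 without the W1 list, and regions opened in all 3 arms with full-length SOX9 numbered 7 without the SOX9+AFOS list. Counts of static regions (55 without W1), regions in all culture lists (38 without SOX9+AFOS) and regions closed in all 3 arms (12 without it) stayed within 1.5 times.

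The balance of gained minus lost regions changed sign in 8 of 64 recomputations, fell to 0 in 3, moved by over 1.5 times with its sign kept in 24 and stayed within 1.5 times in 29. From D0 to W1 the balance was 9, and -3 with a score of at least 5, -1 in gene bodies alone and -13 with the common −log10 q minimum. From W1 to W2 it was -5, and 5 with a score of at least 5 and 3 with a 100 kb flank. From W2 to W6 it was 10, and -8 in lists of equal size. It was -6 for ΔTA-SOX9, and 1 when a peak had to cover at least 50% of its region, and -3 for SOX9+ARID1a, and 1 with a 100 kb flank. It fell to 0 from W1 to W2 and from W2 to W6 in gene bodies alone, and for ΔHMG-SOX9 with a score of at least 5. The background for regions closed in AFOS lay below the interval in 5 of 6 recomputations and inside it with a 100 kb flank, and for the other gained or lost shares it lay outside the interval in 8 of 122. The cause was not tested. The number of window regions with consensus letters moved by over 1.5 times in 8 of 10 cases when the full region was searched. Many window peaks were weak: 26.6% in skin and 25.7% in culture scored under 5, against 24.2% and 22.9% of all peaks, and presence near the floor of 3 depends on depth.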
